A study of Mus musculus with 16 samples.

Results

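The effect of diabetes on the aorta was measured as an average over mice whose diet held the protein kinase C beta inhibitor ruboxistaurin (RBX) and mice whose diet did not. For each gene, the mean log2 signal of the 2 diabetic groups was set against that of the 2 non-diabetic groups, each diet weighing the same, and genes were kept whose difference had the same sign in both diets. Of 11036 genes tested, 4005 met this rule, and all 16 arrays of the series entered it. The 11036 genes were those of 18193 gene symbols on the array whose signal passed a filter on low values.

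Every mouse lacked apolipoprotein E (ApoE-/-, a strain that develops atherosclerosis), came from The Jackson Laboratory at 5 weeks of age, ate a high fat diet for 10 weeks from 8 weeks of age and was 18 weeks old when the whole aorta was taken. The 4 groups of 4 individual mice were non-diabetic, non-diabetic with RBX in the diet, diabetic, and diabetic with RBX in the diet. Diabetes was induced with streptozotocin (STZ) at 6 weeks of age, so it preceded both the diet and RBX. What the non-diabetic mice received in its place, the dose of RBX and the blood glucose of the mice are not given in the sources used here. Each array carried the RNA of 1 mouse.

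Streptozotocin kills the insulin-producing beta cells of the pancreas, and the mice then lack insulin and have high blood glucose. Insulin drives the synthesis of fatty acids through the transcription factor SREBP-1c, whose targets include the enzymes Fasn and Acaca. High glucose raises diacylglycerol in vascular cells, which activates protein kinase C beta, the enzyme that RBX inhibits. Acute phase proteins, metallothioneins and heat shock proteins are classes of genes that cells induce under inflammation, metal or glucocorticoid exposure, and protein damage.

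The 4 arrays of non-diabetic mice given RBX were unlike the rest. Their scores on the leading principal component (30.2% of the variance) were 21.7, 22.3, 25.6 and 51.8, while those of the remaining arrays lay between -28.9 and 4.28. Diabetes moved this score by 18.4 without RBX and by -32.2 with RBX, so that the averaged difference was -6.88 (exact permutation p = 0.433, two-sided, labels permuted within each diet, adjusted p = 0.829 over 5 array measures). The averaged differences of the cre hybridisation control, of the 3' to 5' ratios of Actb and Gapdh and of the median signal had adjusted p-values from 0.829 to 0.851 in the same exact test, whose smallest possible p is 0.000408. Within the diets the cre control differed by 0.36 without RBX and by -0.61 with RBX (exact permutation p = 0.114 and 0.0286). All 4 non-diabetic RBX arrays, at log2 18.24 to 19.13, were above every other array, whose highest was 18.17. The averaged test does not show this difference, which cannot be told apart from the group. An averaged value therefore weighed 2 contrasts of unlike arrays, and the values in both diets are given beside it for the genes described in full. Since the non-diabetic RBX group is needed for the average, the diet without RBX is the comparison that leaves it out.

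The tissue carried the defining transcripts of an artery. All 25 smooth muscle contractile genes on the list passed the filter, with mean signals of Acta2, smooth muscle actin, from 165904 to 215298 over the groups, and so did all 23 endothelial and all 24 macrophage markers. Of 22 markers of cardiac and skeletal muscle, 6 passed, and Myh6, Myh7 and Ckm were not among them. Adipocyte markers were present as well, 10 of 17 for white and 11 of 13 for brown adipocytes. Averaged over both diets, the summed signal of 11 cell marker lists differed with adjusted p-values from 0.552 to 0.997 (exact permutation test). Ighm, the heavy chain of immunoglobulin M, stood at 44844.7 and 52138.2 in non-diabetic mice 1 and 2 and between 926.1 and 2269.5 in the other 14 mice. In bulk tissue, fewer cells of a type and less RNA per cell cannot be told apart, which holds for every result below.

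**Figure D1:**
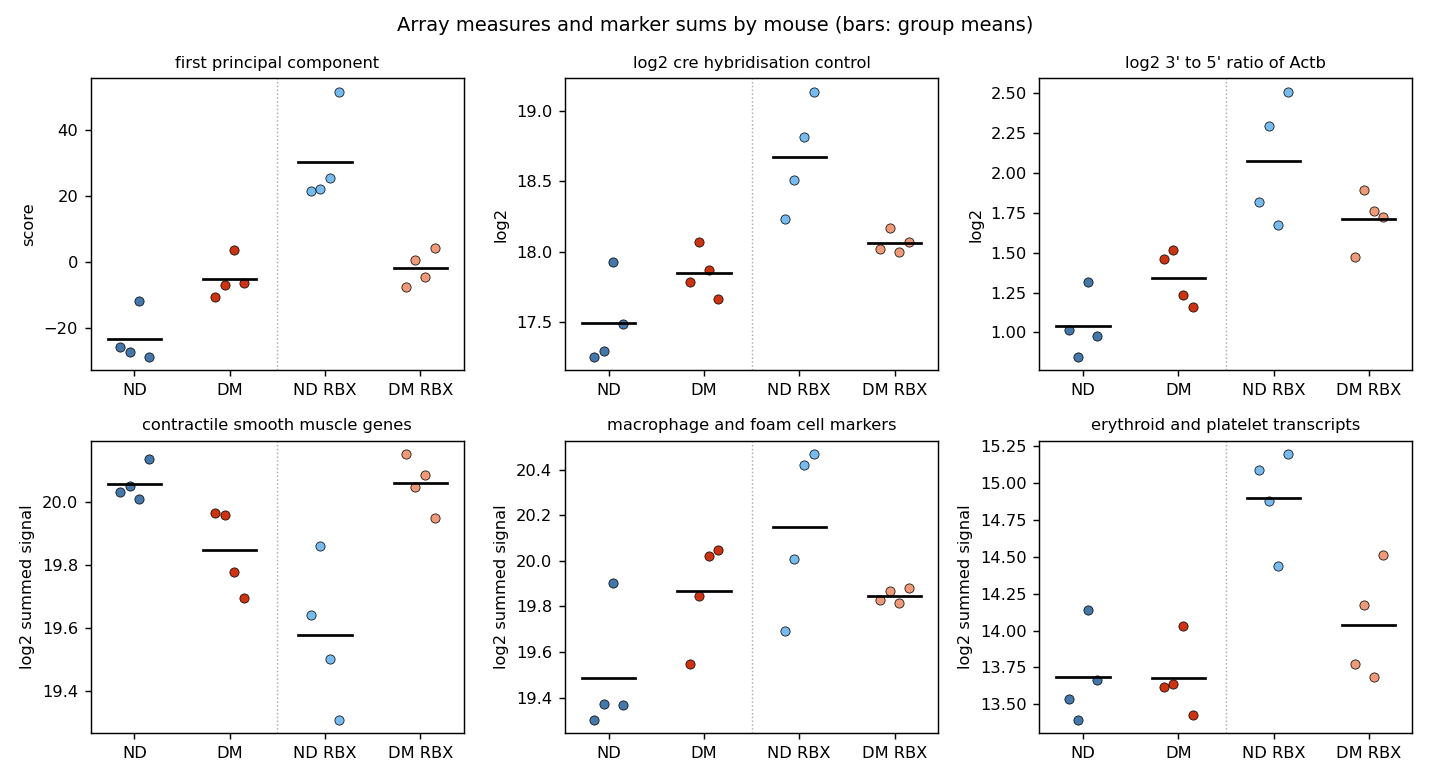
Array measures and summed marker signals of the 16 mice, with a bar for each group mean (ND, non-diabetic; DM, diabetic; RBX, inhibitor in the diet; n = 4 a group). The upper panels show the score of the first principal component, the log2 signal of the cre control and the log2 3' to 5' ratio of Actb, and the lower panels show log2 summed signals of 3 marker lists. The 4 non-diabetic RBX mice lie above the other 12 on the first principal component, and the contractile sum is lower in diabetic mice without RBX and higher in diabetic mice with RBX.

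Few of the genes tested were called for the averaged effect of diabetes. Over all of them the median absolute log2 difference was 0.098, and the median SE was 0.117. At a Benjamini-Hochberg adjusted p under 0.05 in limma, 10 genes (0.0906%) were called, of which 8 (0.0725%) rose and 2 (0.0181%) fell, and 9 (0.0816%) had the same sign in both diets. The latter were Saa3, Itih4, Ccl8, Mt2, Hspa1b, Slc8a1 and Iigp1, which rose, and Ppbp and Rab6b, which fell. An unadjusted p under 0.05 was reached by 1095 genes (9.92%), 768 (6.96%) of them with the same sign in both diets. The count of 10 moved between 1 and 14 when each array was left out in turn. It was 1 without diabetic RBX mouse 2 and also without diabetic RBX mouse 3, 4 without non-diabetic mouse 2 or diabetic mouse 4, 5 without non-diabetic mouse 4 or diabetic mouse 2, and 6 without diabetic mouse 3.

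The diabetes effects in the 2 diets, which share no array, mostly differed in sign. The average was above 0 for 5289 of the 11036 genes (47.9%). Of all genes, 1832 (16.6%) were higher in diabetic mice in both diets, 2173 (19.7%) were lower in both, and 7031 had opposite signs. Across genes, which are not independent replicates, the effects had a Pearson correlation of -0.36 and a Spearman correlation of -0.37. Within a diet, 72 genes (0.652%) were called for diabetes without RBX and 784 (7.1%) with RBX, of which 0 were called in both diets with the same sign and 25 (0.227%) with opposite signs. At an unadjusted p under 0.05 in both diets, 41 genes (0.372%) agreed in sign and 624 (5.65%) disagreed. The test of the difference between the diets (the interaction) called 1273 genes (11.5%). It called 0 with the first principal component or the cre control as a covariate and 341 with the Actb ratio. The component was computed from these same values, and both it and the cre control set the non-diabetic RBX arrays apart. Fits with them therefore cannot tell the interaction from these measures.

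**Figure D2:**
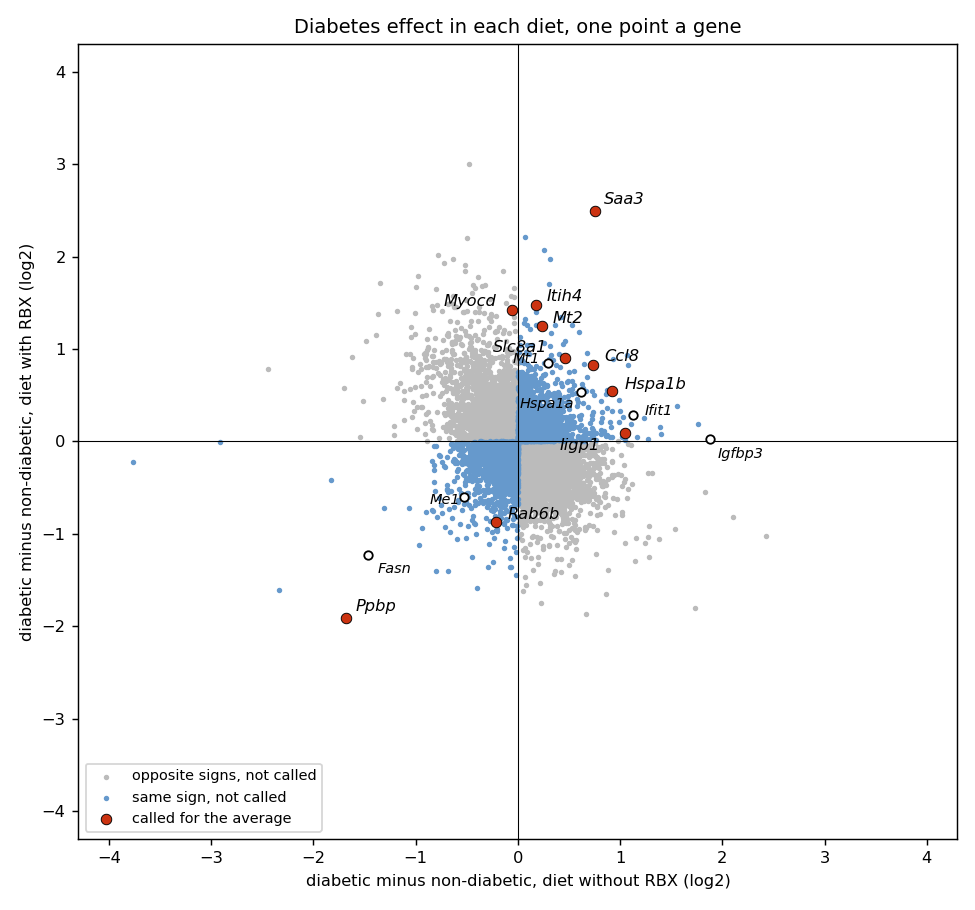
Log2 difference of diabetic from non-diabetic mice in the diet without RBX (horizontal axis) and with RBX (vertical axis), 1 point for each of the 11036 genes tested. Blue points share their sign in both diets, grey points do not, red points are the 10 genes called for the average, and open points are genes named in the text that were not called. Ppbp lies far below 0 and Hspa1b and Ccl8 clearly above 0 in both diets, while Iigp1 and Myocd lie near 0 in 1 diet.

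The nearest called genes to the rule's boundary were Iigp1, just inside it with a difference of 0.09 in the diet with RBX, and Myocd, just outside with -0.05 in the diet without RBX.

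Saa3, an acute phase serum amyloid A made locally by macrophages and adipocytes, showed the largest averaged rise of the genes called. In the diet without RBX its signals were 6607.5, 5253.4, 4220.5 and 2170.3 in non-diabetic mice and 7606.2, 10304.7, 5630.8 and 5827.8 in diabetic mice. In the diet with RBX they were 968.6, 2950.1, 1602.3 and 859.6 in non-diabetic mice and 7928.9, 10863.3, 9119.7 and 4996.5 in diabetic mice. The groups overlapped without RBX, and with RBX every diabetic mouse was above every non-diabetic one. The highest non-diabetic RBX mouse, at 2950.1, was below 3 of the 4 non-diabetic mice without RBX. The averaged log2 difference was 1.62 (SE 0.26, adjusted p = 0.0180), made of 0.75 without RBX and 2.49 with RBX, and these differed (interaction adjusted p = 0.0353, limma). Without diabetic RBX mouse 2 or mouse 3 the averaged adjusted p was 0.0577 and 0.0571.

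Itih4, an inter-alpha-trypsin inhibitor heavy chain of the acute phase, was also lowest in the non-diabetic RBX mice. Its signal averaged 31859 ± 2731 in non-diabetic, 35882 ± 1880 in diabetic, 12579 ± 6004 in non-diabetic RBX and 32497 ± 1515 in diabetic RBX mice (SD, n = 4 each). The non-diabetic RBX mice, at 7558.7 to 21274.0, were all below the other 12, whose lowest value was 27958.1. Itih4 rose by 0.83 (SE 0.14, adjusted p = 0.0191, limma), with 0.17 without RBX and 1.48 with RBX (interaction adjusted p = 0.00616). Its call was lost without any of 7 arrays, at adjusted p-values from 0.0514 to 0.0643. These were mice 2 and 4 of the non-diabetic group, mice 2, 3 and 4 of the diabetic group, and mice 2 and 3 of the diabetic RBX group. Lbp, the lipopolysaccharide binding protein of the acute phase, was looked at after its values were seen. It was higher in every diabetic mouse than in every non-diabetic mouse of the same diet, at 6038.7 to 8171.2 against 5050.1 to 5987.0 without RBX and 5302.3 to 8712.6 against 3671.3 to 5173.8 with RBX, with a log2 difference of 0.41 (SE 0.11, adjusted p = 0.205), made of 0.29 and 0.53.

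**Figure D3:**
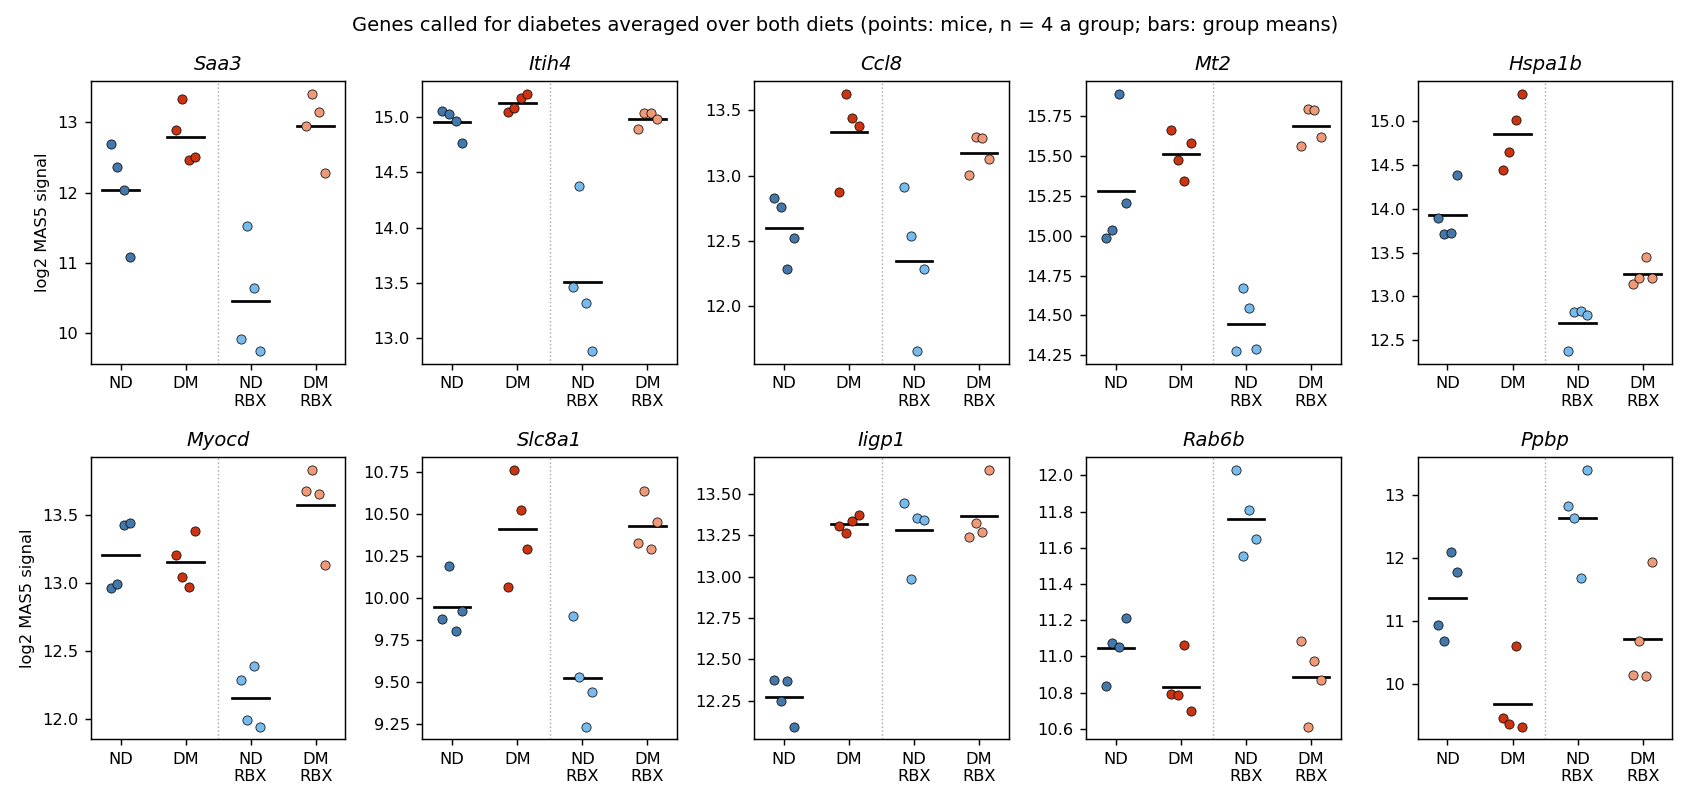
Log2 signal of the 10 genes called for the averaged effect in each mouse (points) with group means (bars), n = 4 a group, the diet without RBX left and with RBX right of the dotted line. In Hspa1b and Ccl8 the diabetic mice lie above the non-diabetic mice of both diets. In Itih4, Mt2 and Myocd the non-diabetic RBX mice are the low group, in Rab6b they are the high group, and in Iigp1 the non-diabetic mice without RBX are the low group.

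Metallothioneins are small cysteine-rich proteins that bind zinc and copper, and their genes are induced by metals through the metal response element and by glucocorticoids. Mt1 and Mt2 are neighbours on chromosome 8. Their promoters are shown because both genes had a high signal in every group and Mt2 was called. The sequences are the 250 bases before the start in RefSeq GRCm38.p6, on the plus strand, chr8:94172368-94172617 for Mt2 and chr8:94178839-94179088 for Mt1, with capitals for matches to the core of the metal response element, TGCACNC or TGCGCNC on either strand.
Mt2: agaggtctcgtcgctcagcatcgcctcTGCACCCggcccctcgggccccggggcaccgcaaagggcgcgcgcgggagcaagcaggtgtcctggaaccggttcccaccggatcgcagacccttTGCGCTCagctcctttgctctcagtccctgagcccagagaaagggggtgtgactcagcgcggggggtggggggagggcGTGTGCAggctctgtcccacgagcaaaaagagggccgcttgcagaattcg
Mt1: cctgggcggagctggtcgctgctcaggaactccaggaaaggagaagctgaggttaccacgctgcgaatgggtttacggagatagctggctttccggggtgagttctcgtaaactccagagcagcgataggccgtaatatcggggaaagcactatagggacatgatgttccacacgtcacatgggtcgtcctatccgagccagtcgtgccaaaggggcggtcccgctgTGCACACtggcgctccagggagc
Within these windows the search found 3 matches before Mt2 and 1 before Mt1. Of the 32851 promoters in the table, 21.4% hold at least 1 match. Each window was set by the annotated start of its gene, and bases outside it were not searched. The counts therefore do not give the number of metal response elements of either gene, and cannot be used to compare Mt1 with Mt2. This motif was added after the values were seen, and a match is a description of the letters only.

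Mt2 signals were 32460.1, 33621.0, 60745.1 and 37748.2 in non-diabetic and 51914.3, 45516.2, 41514.6 and 49066.4 in diabetic mice without RBX. With RBX they were 19863.3, 26074.5, 23946.5 and 19985.0 in non-diabetic and 48384.8, 56804.8, 56607.2 and 50402.1 in diabetic mice. Without RBX the groups overlapped through non-diabetic mouse 3 alone, and with RBX the lowest diabetic mouse was well above the highest non-diabetic mouse. Mt2 rose by 0.74 (SE 0.11, adjusted p = 0.0137, limma), with 0.24 without RBX and 1.25 with RBX (interaction adjusted p = 0.00707). Without diabetic RBX mouse 2 or 3 its adjusted p was 0.0577 and 0.0571.

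Mt1 was not called. Its signal averaged 49676 ± 15366 in non-diabetic, 59306 ± 3825 in diabetic, 36822 ± 7420 in non-diabetic RBX and 65469 ± 4611 in diabetic RBX mice, a log2 difference of 0.58 (SE 0.12, adjusted p = 0.117, limma). As for Mt2, non-diabetic mouse 3 was the high one of its group, at 72229.4, and without it the Mt1 adjusted p was 0.00629. Mt1 stayed uncalled when any of the other 15 arrays was left out. The probe set is of a type that can match more than 1 gene, and a dimmer Mt1 probe set gave 0.24. Of the 24 measured oxidative stress enzymes and subunits of the NADPH oxidase, 1 rose (Mt2) and 0 fell. Their median log2 difference was 0.07, against -0.01 over all genes, and 4 of 24 shared their sign in both diets, against 36.3% of all genes. Gpx3, a secreted glutathione peroxidase, had 0.32, with 1.01 without RBX and -0.37 with RBX, and Ncf4, a subunit of the oxidase, had -0.26, with 0.27 and -0.79.

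Hspa1b and Hspa1a encode the inducible chaperone HSP70 and are near-identical copies on chromosome 17, so their probe sets may share RNA and the genes are uncertain as separate measurements. Their promoters are shown because they differ so little. They are the 250 bases before the start in RefSeq GRCm38.p6 on the minus strand, chr17:34959239-34959488 for Hspa1b and chr17:34972157-34972406 for Hspa1a, and capitals mark the 3 bases that differ (98.8% identity).
Hspa1b: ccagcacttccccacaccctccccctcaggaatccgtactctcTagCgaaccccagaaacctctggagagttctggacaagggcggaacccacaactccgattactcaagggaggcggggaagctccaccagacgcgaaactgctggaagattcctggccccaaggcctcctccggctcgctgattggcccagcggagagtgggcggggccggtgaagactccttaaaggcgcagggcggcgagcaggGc
Hspa1a: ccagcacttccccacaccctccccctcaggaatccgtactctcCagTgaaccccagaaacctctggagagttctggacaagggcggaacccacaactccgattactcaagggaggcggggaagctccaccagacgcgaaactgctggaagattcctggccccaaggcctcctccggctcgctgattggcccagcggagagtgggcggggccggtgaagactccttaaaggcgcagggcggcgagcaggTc
No exact match to the heat shock element, searched on both strands, lies in these windows, and 0.466% of all promoters hold one.

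Hspa1b was among the 15 genes (0.136%) whose groups did not overlap in both diets in the same direction. In opposite directions there were 203 such genes (1.84%), and within a single diet 9.45% of genes without RBX and 12.5% with RBX did not overlap. Without RBX the Hspa1b signals were 15254.1, 13457.2, 13517.5 and 21311.6 in non-diabetic and 22169.9, 25615.1, 33070.4 and 40479.6 in diabetic mice. With RBX they were 5335.6, 7230.4, 7278.3 and 7051.6 in non-diabetic and 9030.6, 9502.5, 11186.0 and 9487.9 in diabetic mice. Both RBX groups were lower than both groups without RBX, and diabetes was the higher group within each diet. Hspa1b rose by 0.74 (SE 0.12, adjusted p = 0.0180, limma), with 0.92 without RBX and 0.55 with RBX (interaction adjusted p = 0.341). Its 2 other probe sets gave 0.83 and 0.78. Its call was lost without non-diabetic mouse 2, diabetic mouse 3 or diabetic RBX mouse 2 or 3, at adjusted p-values from 0.0514 to 0.0577.

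Hspa1a had a log2 difference of 0.58 (SE 0.13, adjusted p = 0.187, limma), with 0.62 and 0.53 in the 2 diets, and was not called. Of 20 measured heat shock chaperones and co-chaperones, 1 rose and 0 fell, and at an unadjusted p under 0.05 there were 9 above and 1 below 0, against 5.15% and 4.78% of all genes. The list's median was 0.16, and 8 of 20 shared their sign in both diets, against 36.3% of all genes. Dnajb4, a co-chaperone of HSP70, had 0.49 (0.01 without RBX, 0.97 with RBX) and Dnajb1, another, had 0.26 (0.55 and -0.03), and for both the diets differed (interaction adjusted p = 0.0198 and 0.0325). Without diabetic RBX mouse 4, Dnajb4 had an adjusted p of 0.0329, and it stayed uncalled when any of the other 15 arrays was left out.

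Ccl8, a chemokine made by resident macrophages of the vessel wall, rose to nearly the same extent in both diets. Its signals without RBX were 7259.4, 6915.5, 4975.0 and 5881.4 in non-diabetic and 7489.3, 12646.1, 11143.7 and 10671.1 in diabetic mice. With RBX they were 7710.0, 5941.0, 3224.3 and 4986.4 in non-diabetic and 8203.7, 10053.3, 9979.0 and 8924.3 in diabetic mice. In each diet the lowest diabetic mouse was just above the highest non-diabetic mouse. The averaged log2 difference was 0.78 (SE 0.15, adjusted p = 0.0467, limma), with 0.73 without RBX and 0.83 with RBX (interaction adjusted p = 0.866). The call was close to the threshold and was kept when non-diabetic RBX mouse 1 or 3 or diabetic mouse 1 was left out, and lost without any of the other 13 arrays, at adjusted p-values from 0.0625 to 0.156.

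Of 13 measured markers of resident adventitial macrophages, 1 (Ccl8) rose and 0 fell. Their median was 0.22, with 0.43 without RBX and 0.06 with RBX, and 6 of 13 were above 0 in both diets, against 16.6% of all genes. Fcna, a ficolin of these macrophages, had 0.53 (1.11 without RBX and -0.04 with RBX, interaction adjusted p = 0.0411), and Lyve1, a hyaluronan receptor, had 0.37 (0.76 and -0.02). Without non-diabetic RBX mouse 1 both had an adjusted p of 0.0312, and leaving out any of the other 15 arrays called neither. Pf4, which the list shares with platelets, had -0.29. The summed signal of the 13 genes ran from 82541 to 100639 in non-diabetic, 96658 to 117278 in diabetic, 101125 to 163798 in non-diabetic RBX and 113654 to 122905 in diabetic RBX mice. Its averaged log2 difference was 0.11 (exact permutation p = 0.280, adjusted p = 0.662), and its part in the Ccl8 result was not tested.

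Among 30 measured adhesion molecules and chemokines, Ccl8 alone rose and 0 fell. At an unadjusted p under 0.05 there were 5 above and 0 below 0, against 5.15% and 4.78% of all genes. Their median was 0.13, and 10 of 30 shared their sign in both diets, near the 36.3% of all genes. Vcam1, an endothelial adhesion molecule for monocytes, had 0.26 (0.24 without RBX and 0.29 with RBX, adjusted p = 0.435), and Il6, a cytokine, had 1.17 (0.26 and 2.07, adjusted p = 0.429). Cxcl12, a chemokine of stromal cells, had 0.29 (0.05 and 0.53). The general macrophage markers stood at a median of 0.05, with 0.40 without RBX and -0.28 with RBX, and 1 of 24 shared its sign in both diets.

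Iigp1, an interferon-inducible GTPase, had the smallest adjusted p of the averaged effect. Its signals without RBX were 5310.6, 4869.3, 5287.1 and 4374.7 in non-diabetic and 10109.2, 9820.5, 10334.2 and 10618.8 in diabetic mice. With RBX they were 11165.4, 8094.4, 10463.6 and 10389.8 in non-diabetic and 9648.7, 10231.3, 9888.9 and 12817.5 in diabetic mice. Only the non-diabetic mice without RBX were low, and the other 3 groups overlapped. Iigp1 rose by 0.57 (SE 0.08, adjusted p = 0.0101, limma), with 1.05 without RBX and 0.09 with RBX (interaction adjusted p = 0.000934), and a second probe set gave 0.85 and 0.11. Its call was kept without any single array, at adjusted p-values from 0.00464 to 0.0351.

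Interferon response genes had a higher median in the diet without RBX. Of 29 measured, 1 (Iigp1) rose and 0 fell. At an unadjusted p under 0.05 there were 10 above and 0 below 0, against 5.15% and 4.78% of all genes. Their median was 0.16, with 0.54 without RBX and -0.17 with RBX. In both diets 12 of 29 shared their sign, near the 36.3% of all genes, and all 12 were above 0, against 16.6% of all genes. Ifit1, an antiviral RNA-binding protein, ran from 1003.7 to 1673.4 in non-diabetic, 1596.9 to 3409.6 in diabetic, 1635.8 to 2509.8 in non-diabetic RBX and 2452.1 to 2754.6 in diabetic RBX mice. Its log2 difference was 0.71 (SE 0.15, adjusted p = 0.126, limma), and without diabetic mouse 1, the low one of its group, the adjusted p was 0.00904. Ifit1 stayed uncalled when any of the other 15 arrays was left out. Bst2 (tetherin) had 0.54, with 0.82 and 0.25, and Rtp4, a chaperone of receptors, had 0.60, with 0.99 and 0.21 in the diets without and with RBX.

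Ppbp, the platelet basic protein precursor, showed the largest averaged fall of the genes called. Without RBX its signals were 1971.6, 1637.8, 4392.9 and 3497.3 in non-diabetic and 706.4, 660.8, 1565.5 and 642.9 in diabetic mice. With RBX they were 7257.5, 6357.3, 3290.5 and 10832.3 in non-diabetic and 1134.3, 1638.9, 1116.1 and 3909.7 in diabetic mice. Without RBX the groups did not overlap, and with RBX diabetic mouse 4 lay above non-diabetic mouse 3. Ppbp fell by 1.80 on the log2 scale (SE 0.30, adjusted p = 0.0180, limma), with -1.68 without RBX and -1.92 with RBX (interaction adjusted p = 0.833). Its call was lost without non-diabetic mouse 4, diabetic mouse 2 or 4 or diabetic RBX mouse 1, 2 or 3, at adjusted p-values from 0.0518 to 0.0600.

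Of 14 listed erythroid and platelet transcripts 7 were measured, of which 1 (Ppbp) fell and 0 rose. At an unadjusted p under 0.05 there were 5 below and 0 above 0, against 4.78% and 5.15% of all genes. In both diets 5 of 7 shared their sign, 3 of them below 0, against 36.3% and 19.7% of all genes. The median of the 7 was -0.46, with 0.05 without RBX and -0.88 with RBX. Pf4, a platelet chemokine also made by macrophages, had 0.30 without RBX and -0.88 with RBX (interaction adjusted p = 0.000681). Gp1bb, a subunit of the receptor for von Willebrand factor, had -0.28 and -0.65, and Itga2b, the platelet fibrinogen receptor subunit, had -0.01 and -0.91. A dimmer measured Gp1bb probe set gave 0.43 without RBX and -0.36 with RBX. The summed signal of the 7 ran from 10770 to 18042 in non-diabetic, 11013 to 16769 in diabetic, 22205 to 37537 in non-diabetic RBX and 13151 to 23392 in diabetic RBX mice. Its averaged difference was -0.44 (exact permutation p = 0.0502, adjusted p = 0.552), and its part in the Ppbp result was not tested. Alox12, the platelet 12-lipoxygenase, is on no list and was looked at after its values were seen. It ran from 399.9 to 904.0 in non-diabetic and 15.4 to 312.9 in diabetic mice without RBX, and from 773.7 to 2011.4 and 277.1 to 768.3 with RBX. Its groups did not overlap in either diet, and its log2 difference was -1.97 (SE 0.48, adjusted p = 0.205, limma), with -2.34 without RBX and -1.60 with RBX. Every diabetic mouse except diabetic RBX mouse 4, at 768.3, lay below the filter signal of 383. Alox12 thus passed the filter through its higher, mostly non-diabetic, values. The size of its difference rests on low signals, and its lack of overlap is not support for a platelet fall.

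The enzymes of fatty acid and triglyceride synthesis had averaged differences below 0 in 18 of 22 genes, against 5747 of all 11036, without a call. Fasn, fatty acid synthase, stood at 8653.3, 7482.8, 13229.1 and 10237.9 in non-diabetic and 3486.7, 3604.3, 3744.4 and 3221.9 in diabetic mice without RBX. With RBX it stood at 25227.3, 14191.1, 9487.4 and 22300.1 in non-diabetic and 7025.7, 3079.0, 5243.1 and 22168.4 in diabetic mice. The groups were clearly apart without RBX, and with RBX diabetic mouse 4 lay within the non-diabetic range. The averaged log2 difference was -1.35 (SE 0.29, adjusted p = 0.148, limma), with -1.46 without RBX and -1.23 with RBX, and without diabetic RBX mouse 4 it was -1.62 (adjusted p = 0.00322). Fasn stayed uncalled when any of the other 15 arrays was left out.

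Diabetic RBX mouse 4 was also the high one of its group for other lipid genes and for both adipocyte marker sums given below. Acss2, which makes acetyl-CoA from acetate, stood at 2660.5 in it against 734.5 to 1146.8 in the other 3, and Agpat2, an acyltransferase of triglyceride synthesis, at 8882.5 against 3562.7 to 3706.9. The log2 difference of Acss2 was -0.73 (adjusted p = 0.235, and 0.0329 without that mouse), with -0.57 and -0.90 in the diets without and with RBX, and that of Agpat2 was -0.62, with -0.25 and -0.98. Leaving out any of the other 15 arrays gave no call for Acss2. Me1, the malic enzyme that supplies NADPH to lipid synthesis, did not overlap in either diet. It ran from 2480.7 to 3514.2 in non-diabetic and 1587.4 to 2307.7 in diabetic mice without RBX, and from 2173.0 to 3607.4 and 1579.5 to 2163.7 with RBX, a log2 difference of -0.56 (SE 0.12, adjusted p = 0.136). A second Me1 probe set gave -0.74 and 0.02 in the 2 diets.

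Of 22 measured genes of fatty acid and triglyceride synthesis, 0 passed the test in either direction. At an unadjusted p under 0.05 there were 10 below and 0 above 0, against 4.78% and 5.15% of all genes. The median was -0.34, with -0.19 without RBX and -0.55 with RBX. In both diets 15 of 22 shared their sign, 13 of them below 0, against 36.3% and 19.7% of all genes. The interaction called 0 of the 22, against 11.5% of all genes. Srebf1, the gene of the regulator SREBP-1, had 0.07 (0.01 and 0.13), and Acaca, acetyl-CoA carboxylase, had -0.36, with -0.34 and -0.39.

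Adipocyte markers differed between the diets. The summed white adipocyte markers ran from 139312 to 239725 in non-diabetic, 174235 to 244735 in diabetic, 241376 to 487136 in non-diabetic RBX and 176688 to 267241 in diabetic RBX mice, with log2 differences of 0.34 without RBX and -0.64 with RBX. The brown adipocyte sum gave 0.26 and -0.88. Diabetic RBX mouse 4 had the highest log2 sum of its group for white (18.03 against 17.43 to 17.81) and brown (16.19 against 15.03 to 15.48) adipocyte markers. Without RBX the exact permutation p was 0.114 for the white and 0.600 for the brown adipocyte sum. Their averaged differences were -0.15 and -0.31 (exact permutation p = 0.480 and 0.383). Their part in the lipid synthesis result was not tested in either diet.

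**Figure D4:**
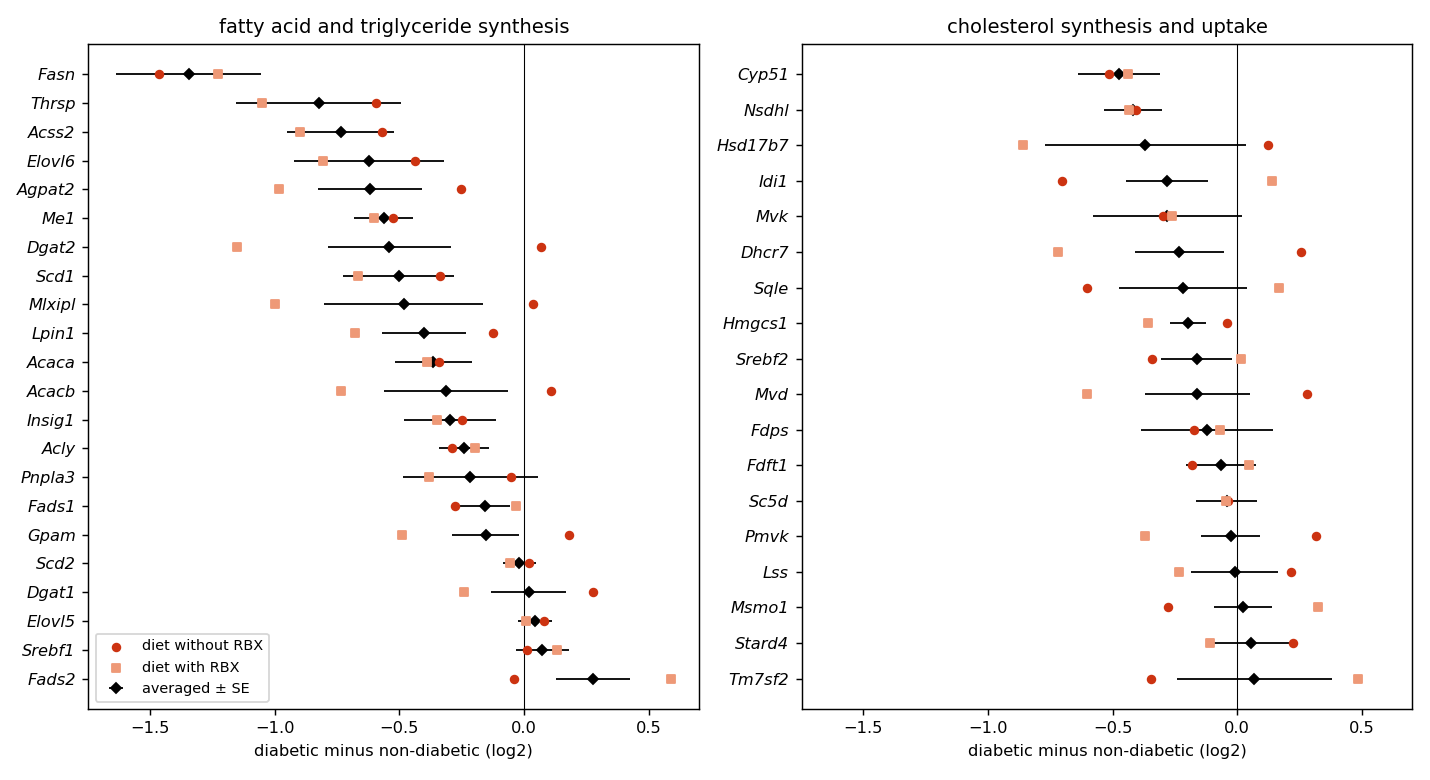
Log2 difference of diabetic from non-diabetic mice for each measured gene of fatty acid and triglyceride synthesis (left, 22 genes) and of cholesterol synthesis and uptake (right, 18 genes), in each diet and averaged (diamonds, bars ± SE). Fasn has the largest difference, -1.35, and most diamonds of the left panel lie below 0, while those of the right panel lie closer to 0.

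Among the genes of cholesterol synthesis and uptake, 0 of 18 measured passed the test. At an unadjusted p under 0.05, 3 lay below and 0 above 0, against 4.78% and 5.15% of all genes. The median was -0.16, with -0.18 without RBX and -0.17 with RBX. The share with the same sign in both diets, 6 of 18, was near the 36.3% of all genes. All 6 were below 0, against 19.7% of all genes. Cyp51 and Nsdhl, enzymes that turn lanosterol into cholesterol, had -0.48 (-0.51 without RBX and -0.44 with RBX) and -0.42 (-0.40 and -0.43). Hmgcs1, which makes HMG-CoA, had -0.20 (-0.04 and -0.36). Among 17 genes of cholesterol storage and efflux 0 passed, and the median was 0.04, with 0.32 without RBX and -0.25 with RBX. Mylip, a ligase that degrades the LDL receptor, had 0.25 (0.31 and 0.20) with groups that did not overlap in either diet. Scarb1, the HDL receptor, had 0.30 (0.32 and 0.29), and Apoc1, a macrophage apolipoprotein, had 0.91 (0.93 and 0.89, adjusted p = 0.430).

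Myocd, the myocardin coactivator that drives the contractile genes of smooth muscle, was the 1 gene called whose sign differed between the diets. Its signal averaged 9569 ± 1726 in non-diabetic, 9166 ± 1174 in diabetic, 4595 ± 694 in non-diabetic RBX and 12412 ± 2393 in diabetic RBX mice (SD, n = 4 each). Without RBX the groups overlapped, and with RBX they were far apart. Its averaged difference of 0.69 (SE 0.11, adjusted p = 0.0180, limma) was made of -0.05 without RBX and 1.42 with RBX (interaction adjusted p = 0.000567). Its call was lost without non-diabetic mouse 2, diabetic mouse 4 or diabetic RBX mouse 2 or 3, at adjusted p-values from 0.0510 to 0.0577. A dimmer Myocd probe set gave 0.73 in both diets.

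Most contractile genes differed between the diets too. Of 25 measured, 1 (Myocd) rose and 0 fell, and their median of 0.12 was made of -0.38 without RBX and 0.77 with RBX. The interaction called 19 of the 25, and 3 shared their sign in both diets, against 11.5% and 36.3% of all genes. Myh11, smooth muscle myosin, had -0.22 and 1.02, and Actg2, enteric smooth muscle actin, had -0.22 and 1.03. Acta2 had 0.09 and 0.08. The summed contractile signal ran from 1054642 to 1152535 in non-diabetic, 849778 to 1022406 in diabetic, 649788 to 951152 in non-diabetic RBX and 1012212 to 1164109 in diabetic RBX mice.

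Slc8a1, the sodium-calcium exchanger of muscle membranes, rose in the average. Its signals without RBX were 940.1, 1166.8, 894.5 and 968.3 in non-diabetic and 1069.5, 1739.2, 1471.6 and 1255.0 in diabetic mice. With RBX they were 949.0, 739.2, 601.9 and 695.0 in non-diabetic and 1282.7, 1594.4, 1255.2 and 1401.3 in diabetic mice. Diabetic mouse 1 lay within the non-diabetic range without RBX, and the groups did not overlap with RBX. The log2 difference was 0.68 (SE 0.13, adjusted p = 0.0441, limma), with 0.46 and 0.90 (interaction adjusted p = 0.270). The call was kept when non-diabetic RBX mouse 1 or diabetic mouse 1 was left out and lost without any of the other 14 arrays, at adjusted p-values from 0.0514 to 0.156. A second measured probe set gave -0.22 and 1.59.

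Rab6b, a small GTPase of Golgi transport best known in neurons, fell. Its signal averaged 2120 ± 225 in non-diabetic, 1833 ± 208 in diabetic, 3499 ± 518 in non-diabetic RBX and 1904 ± 257 in diabetic RBX mice. The non-diabetic RBX mice, at 3006.5 to 4186.5, were all above the other 12, and without RBX the groups overlapped. The log2 difference was -0.54 (SE 0.10, adjusted p = 0.0288, limma), with -0.21 and -0.88 (interaction adjusted p = 0.0311). The call was lost without 9 of the arrays, at adjusted p-values from 0.0504 to 0.0819, and was kept when non-diabetic mouse 1, non-diabetic RBX mouse 2, 3 or 4, diabetic mouse 3 or diabetic RBX mouse 1 or 4 was left out. A second measured probe set gave -0.31. The summed markers of mesothelium, nerve and Schwann cells differed by 0.54 without RBX and -0.54 with RBX.

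Of the matrix genes, 26 of 33 had values above 0, against 47.9% of all genes, without a call. Of 33 measured collagens, elastic fibre genes and their enzymes, 0 passed, and the median was 0.12. At an unadjusted p under 0.05, 8 lay above and 1 below 0, against 5.15% and 4.78% of all genes. They shared their sign in both diets in 16 of 33 genes, 14 of them above 0, against 36.3% and 16.6% of all genes. Postn (periostin) had 0.44 with -0.11 without RBX and 0.997 with RBX, and without diabetic RBX mouse 4 its adjusted p was 0.0329. No other array left out gave Postn a call. Plod2, a collagen lysyl hydroxylase, had 0.36 (0.08 and 0.64), Fbln2 (fibulin 2) had 0.40 (0.62 and 0.18), and Lox, the crosslinking lysyl oxidase, had 0.36 (-0.18 and 0.91). Of 12 measured insulin-like growth factors and their partners 0 passed. Igfbp3, a carrier of IGF1, ran from 465.5 to 724.1 in non-diabetic and 1160.8 to 3049.0 in diabetic mice without RBX, and overlapped with RBX. Its differences were 1.88 and 0.03 (interaction adjusted p = 0.0216), and a second measured probe set gave 1.56 and 1.12. Igf1r, the IGF1 receptor, had 0.04 and 0.75, and Igfbp5 had 0.10 and -0.70.

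Of the unfolded protein response genes, 21 of 24 had values below 0, against 5747 of all 11036 genes. Of 24 measured, 0 passed, and the median was -0.09. At an unadjusted p under 0.05, 4 lay below and 0 above 0, against 4.78% and 5.15% of all genes. In both diets 14 shared their sign, 13 of them below 0, against 36.3% and 19.7% of all genes. Creld2, an endoplasmic reticulum stress protein, had -0.57 (SE 0.15, adjusted p = 0.209, limma), with -0.27 and -0.86. Hyou1, an HSP70-like chaperone of that compartment, had -0.41 (-0.46 and -0.37), and a dimmer measured probe set gave 0.09 and -0.23. Pdia6, a disulphide isomerase, had -0.21 (-0.08 and -0.33), and Hspa5 (BiP) had -0.16 (-0.09 and -0.23). Other measured Hspa5 probe sets gave averages of -0.26 and 0.05.

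**Figure D5:**
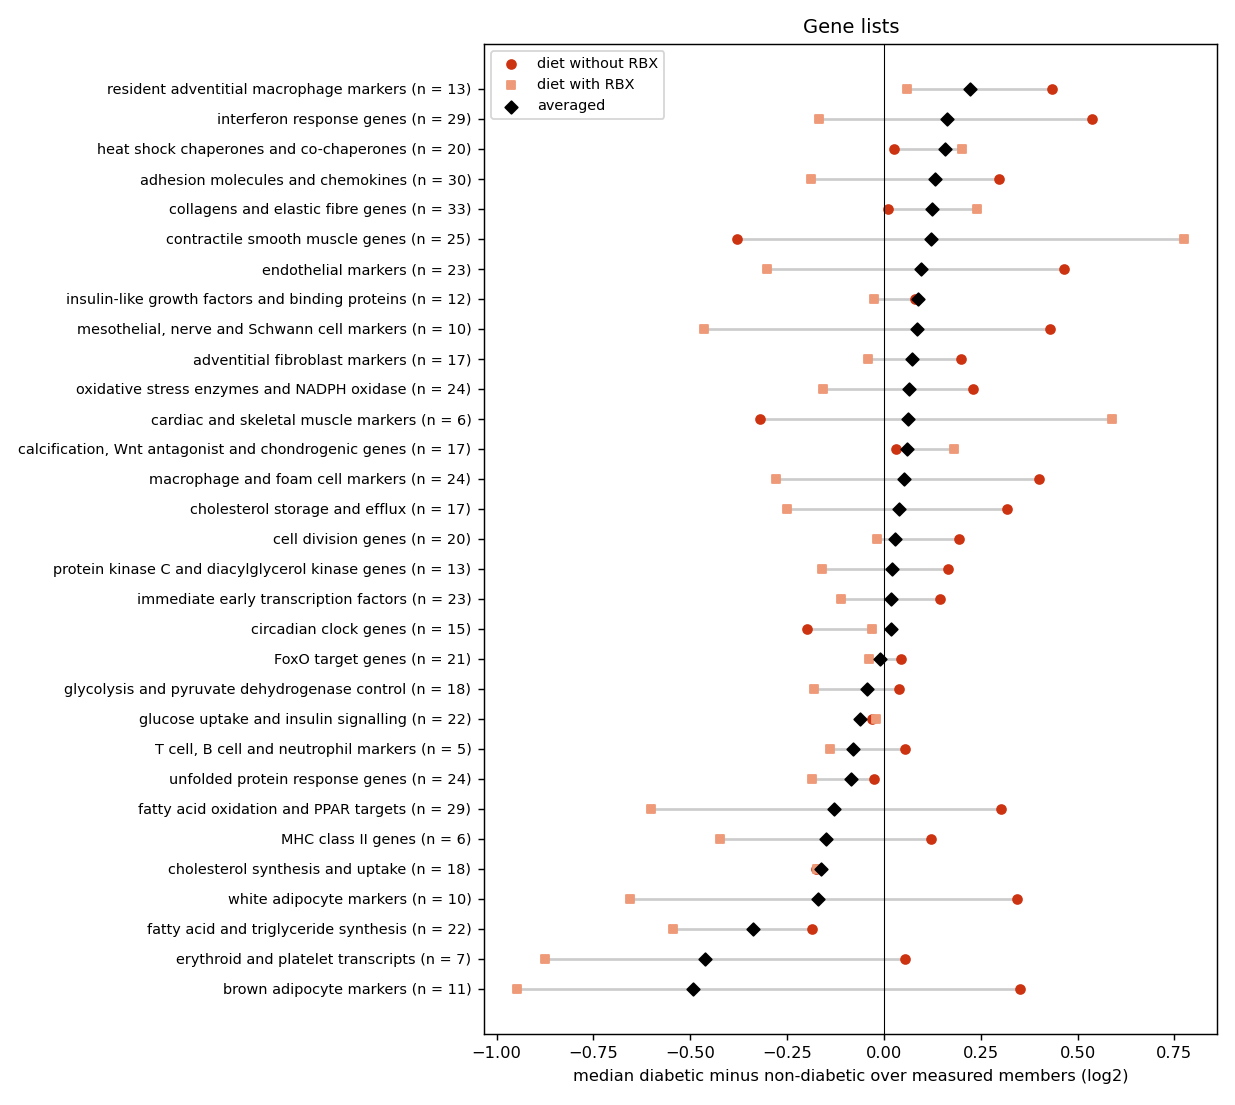
Median log2 difference of diabetic from non-diabetic mice over the measured members of 31 gene lists, without RBX (circles), with RBX (squares) and averaged (diamonds), ordered by the average. The contractile list spans -0.38 to 0.77, and for fatty acid and triglyceride synthesis, at -0.19 and -0.55, both diets lie below 0.

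Most lists had medians of opposite sign in the 2 diets. Fatty acid oxidation genes, 29 measured, had 0.30 without RBX and -0.60 with RBX, and 1 of 29 shared its sign. Endothelial markers had 0.47 and -0.30, with 4 of 23 sharing their sign, against 36.3% of all genes.

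All 8 diabetic mice were beyond all 8 non-diabetic mice for 2 genes (0.0181%), which were looked at after their values were seen. Msi2, an RNA-binding protein, ran from 1811.9 to 3115.1 in non-diabetic and 3203.3 to 4356.6 in diabetic mice over both diets, and Polr1c, a subunit of RNA polymerases I and III, from 3196.4 to 3926.3 and 3970.9 to 4822.6. Neither was called (adjusted p = 0.215 and 0.235, limma). Cyhr1, a cysteine and histidine rich protein, had groups that did not overlap within either diet, with -0.30 (adjusted p = 0.187). Its other measured probe sets gave from -0.35 to -0.05. The brightest of these gave 0.004 without RBX and -0.10 with RBX. Of the further genes with the smallest p among falls that agreed in sign, Fam160b2 had -0.40 (-0.24 without RBX and -0.55 with RBX), and Tars2, a mitochondrial threonyl-tRNA synthetase, had -0.43 (-0.17 and -0.69). Epb41l1 had -0.38 (-0.13 and -0.64), Tns3 had -0.29 (-0.21 and -0.37) and Afg1l had -0.43 (-0.12 and -0.74), all 5 at adjusted p-values from 0.126 to 0.205. A dimmer measured Epb41l1 probe set gave 0.21 without RBX and -0.32 with RBX.

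Prkcb, the target of RBX, did not pass the test, with a log2 difference of 0.07 (adjusted p = 0.912), made of 0.26 without RBX and -0.13 with RBX, and without non-diabetic mouse 4 it was -0.06. Apoe, deleted in all mice, had a low signal that averaged from 282 to 851 over the groups and a difference of -0.60 (adjusted p = 0.649), with 0.67 without RBX and -1.87 with RBX. The position of the Apoe probe set relative to the deletion was not examined, so it does not check the genotype.

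In the 250 bases before the start of the 8 of 10 called genes found in the RefSeq promoter table, the other motifs were searched as well. Iigp1 and Myocd were not among the 8, so no motif was searched before them. The metal response element, described above, was also found before Rab6b, with 2 matches. The core of the interferon-stimulated response element, searched on both strands, was found before Saa3 (2.98% of all promoters hold it), and the CArG box before Ppbp (1.47%). The peroxisome proliferator element (0.0335%), the FoxO site GTAAACA (3.17%), the D-box TTATGTAA (0.819%) and the E-box CACGTG (6.02%) were found before 0 of the 8.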

How the data were processed

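RNA of 16 whole aortas (4 groups of 4 mice) was labelled from 2 ug of total RNA and hybridised to 1-colour Affymetrix arrays of 45101 probe sets. The deposited values are probe set signal intensities on a linear scale, made by the authors with MAS5, per the submitters' processing notes, whose version no source used here gives. MAS5 scales every array to 1 target (the mean with 2% trimmed was 1500.01 on each array). Probe names came from the platform's annotation, in which 34958 probe sets carried a single symbol and were named, 932 carried more than 1, and 9211 were without a name. Of the symbols, 99.4% were in the RefSeq table. Detection calls were not used here.

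Signals were taken as log2, with no further normalization or offset. Probe sets with a mean log2 signal above the median (a signal of 383) were kept, the brightest one stood for its gene, and 64 control probe sets were left out. limma 3.58.1 in R 4.3.3 with the R package data.table (1.17.8) fitted the 4 group means with an intensity trend (12 residual degrees of freedom, 6.21 prior). The contrast averaged both diets, and p-values were Benjamini-Hochberg adjusted over all 11036 genes at a threshold of 0.05. The fit was tested on simulated data. Array measures and marker sums were tested with exact permutations within each diet (4900 assignments). The number of arrays limits the precision of every value.

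The named genes were those called with the same sign in both diets, the genes of smallest p that filled each direction to 10, up to 4 genes of smallest p in each list described, called genes of differing sign, and Apoe and Prkcb. 1 gene that this rule names is not reported here. The members and the 31 gene lists were chosen with earlier results of these data known. Alternatives changed the normalization, filter, offset, probe set choice, variance model, design and covariates, and left out each array in turn. A call gained without an array picked out by its own values is not support for that gene.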

Additional observations from a re-analysis of the deposited data

Results flagged for a closer look

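Single mice lay far from the other 3 of their group in 14 of 304 gene groups and 3 of 64 groups of array measures, where chance alone marks about 1 group in 20. The values are signals, each set beside the range of the other 3 mice. Hspa1b was 5335.6 in non-diabetic RBX mouse 1, below the range of 7051.6 to 7278.3. Ppbp was 1565.5 in diabetic mouse 3, above the range of 642.9 to 706.4. Ifit1 was 1596.9 in diabetic mouse 1, below the range of 3171.0 to 3409.6. Ifit1 was 2754.6 in diabetic RBX mouse 2, above the range of 2452.1 to 2500.1. Cyhr1 was 2968.1 in non-diabetic RBX mouse 2, above the range of 2518.3 to 2566.5. H2-Ab1 was 7198.6 in diabetic mouse 1, below the range of 9694.4 to 9942.4. Il6 was 290.7 in non-diabetic mouse 3, below the range of 2381.8 to 2794.6. Wif1 was 1615.5 in diabetic RBX mouse 4, below the range of 2310.3 to 2475.4. Cyp51 was 595.0 in non-diabetic mouse 4, below the range of 897.6 to 934.7. Agpat2 was 8882.5 in diabetic RBX mouse 4, above the range of 3562.7 to 3706.9. Ier3 was 5506.0 in diabetic RBX mouse 4, below the range of 7740.3 to 8033.9. Jun was 3707.7 in diabetic RBX mouse 4, below the range of 5242.9 to 5520.9. Gpx3 was 18301.4 in non-diabetic RBX mouse 3, below the range of 27059.2 to 28223.1. Ncf4 was 1527.1 in diabetic mouse 1, below the range of 2327.8 to 2492.6. On the first principal component, non-diabetic RBX mouse 4 scored 51.8 against 21.7 to 25.6. Non-diabetic mouse 3 had a log2 summed macrophage signal of 19.9 against 19.3 to 19.4, and a log2 summed mesothelial, nerve and Schwann cell signal of 13.3 against 12.96 to 12.98.

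The diabetes effect differed between the diets for 26 of the 76 named genes (interaction in limma, adjusted p from 0.000309 for Wif1 to 0.0480 for Pik3ca). The log2 effect with RBX minus that without was above 0 for Saa3 1.74, Itih4 1.30, Mt2 1.01, Myocd 1.48, Wif1 1.84, Postn 1.10, Lox 1.09, Itga8 1.31, Myh11 1.24, Actg2 1.25, Pik3ca 0.52, Dnajb4 0.96 and Igf1r 0.71. It was below 0 for Iigp1 -0.96, Rab6b -0.67, Apoe -2.54, H2-Ab1 -0.90, H2-Aa -0.66, Bmp2 -1.04, Pf4 -1.18, Dnajb1 -0.58, Igfbp3 -1.85, Igfbp5 -0.81, Gpx3 -1.37, Ncf4 -1.06 and Fcna -1.15.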

How the results depend on the processing

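The count of 10 genes called for the averaged effect became 5 with the mean of a gene's probe sets, 6 with robust variance estimation and 16 with the first principal component as a covariate, an alternative chosen after seeing the data. It became 0 without an intensity trend, 0 in an additive model and 0 with diabetes alone (8 against 8 arrays) in limma, where 1082, 792 and 577 genes had an unadjusted p under 0.05. Leaving out each array gave 1 to 14. The count of 9 with the same sign in both diets became 5 with the mean of probe sets, 0 without a trend, 5 with robust estimation and 14 with array weights, and 1 to 13 when each array was left out. The 4005 genes of the same sign became 7497 without a filter, 2617 with a filter at the 70th percentile and 7212 with all probe sets apart, of 18193, 7733 and 19099 features tested. With each array left out in turn they numbered 3888 to 4242. The interaction count of 1273 became 0 with the cre control, 341 with the Actb ratio and 0 with the first principal component as a covariate, and 772 (without diabetic mouse 3) to 1529 when each array was left out. The cre control and the component set the non-diabetic RBX arrays apart, so these 2 fits cannot tell the interaction from them. The additive model and the fit of diabetes alone hold no interaction term, so the difference between the diets stays in their residual spread. For the other changes of count the cause was not tested. Of 2424 values of 76 named genes under alternatives, 2289 kept their direction and side of the threshold, 110 lost and 23 gained a call, and 2 changed sign. These were Prkcb, which ran from -0.060 to 0.12 when each array was left out, and Ier5, at -0.012 with the mean of probe sets. Only the 10 called genes could lose a call, so most of the 2424 values could not. Slc8a1 lost its call in 24 of 31 alternatives, Ccl8 in 22 of 32, Rab6b in 14 of 32 and Iigp1, the fewest, in 3 of 32. All 93 list medians recomputed under quantile normalization, centring on the 75th percentile or no filter moved by less than the spread between replicates. Quantile normalization shifted the median of all genes by -0.0031 and centring by -0.0104.

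The replicate numbers of the titles were not treated as pairing, since 2 of 24 same-numbered pairs had a correlation of deviations over 0.1 (range -0.137 to 0.181). With the replicate number as a block, 12 genes were called for the average, 11 with the same sign, and 1382 for the interaction, and Bst2 and Igfbp3 gained a call.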

Other observations

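Further gene lists had no member called for the averaged effect. Of 15 measured circadian clock genes, whose median was 0.02, Tef, a PAR bZIP transcription factor of the clock's output, had a log2 difference of -0.35 (-0.42 without RBX and -0.28 with RBX, adjusted p = 0.219, limma). Nfil3, a repressor at the same sites as Tef, had 0.90 (0.53 and 1.26). Of 22 measured genes of glucose uptake and insulin signalling, with a median of -0.06, Slc2a3, a glucose transporter, had -0.52 (-0.22 and -0.81) and Gsk3b, the glycogen synthase kinase, had 0.26 (0.26 and 0.25), with other measured probe sets from -0.10 to 0.40. The 23 measured immediate early genes had a median of 0.02. At an unadjusted p under 0.05, 5 lay above and 0 below 0, against 5.15% and 4.78% of all genes. Among them Fosl2, an AP-1 subunit, had 0.32 (0.15 and 0.49) and Jun, another, had 0.21 (0.36 and 0.06).

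All 6 measured MHC class II genes had averaged values below 0, against 5747 of all 11036 genes, with a median of -0.15. Within the diets the list's median was 0.12 without RBX and -0.42 with RBX. In both diets 1 of the 6 had the same sign, against 36.3% of all genes. H2-Ab1, the beta chain of I-A, had 0.16 without RBX and -0.74 with RBX (interaction adjusted p = 0.00362, limma), and H2-Eb1, the beta chain of I-E, had 0.05 and -0.39. Of 17 measured calcification, Wnt antagonist and chondrogenic genes, with a median of 0.06, Sfrp4, a secreted Wnt antagonist, had 0.46 (0.40 and 0.53), and Wif1, another, had -0.38 without RBX and 1.45 with RBX. Bmp2, a bone morphogenetic protein, had 0.19 and -0.85.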
